A study of Mus musculus with 5 samples.

Results

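Hepatocytes of the library from mice fasted for 16 h were compared according to their serum amyloid A transcripts. Barcodes were kept with at least 1000 UMIs (counted molecules), at least 500 genes, 2% to 30% mitochondrial UMIs and less than 2% haemoglobin UMIs. A barcode was called high with 50 or more Saa1 plus Saa2 UMIs per 10000 of its UMIs, and low with fewer than 20. Of 9125 barcodes past the filters, 4970 were high (54.5%, exact Clopper-Pearson 95% interval 53.4% to 55.5%) and 3871 were low (42.4%). The 284 barcodes between the limits (3.11%) entered neither class, and the 8841 members stand among 50000 barcodes of 5 libraries. Members were thus chosen by their Saa1 and Saa2 counts, whose values are given only as a description, and 2 ranges of a score are not 2 cell types. Saa3 and Lcn2, the other markers named for the high class, took no part in the choice, but were picked with earlier results of these data known.

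The mice were wild-type C57BL/6J males fed chow, and the tissue was liver. The animals had been trained for 3 days to fast 16 h overnight and feed 8 h by day, and were given chow and water with 20% sucrose for 4 h before food was removed. The fed library is 0 h, and the others followed after 4, 8, 16 and 24 h without food, the 16 h library at clock hour 5. Each time point was 1 library of isolated hepatocytes, made with 10x Genomics 3' chemistry. How many animals went into a library is not stated in the labels, so whether high and low barcodes came from the same animals or from different ones cannot be told apart. With 1 library, barcodes are not replicates: no test was made, and every interval covers counting error only.

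The acute-phase response is the change in liver secretion that follows infection, injury or inflammation. Interleukin-6 acts on hepatocytes through the receptor subunit gp130 and STAT3, and interleukin-1 and tumour necrosis factor act through NF-kappa-B. Together with C/EBP factors these raise transcription of serum amyloid A, haptoglobin, hemopexin, fibrinogen and lipocalin 2, whereas albumin and transthyretin are known to decline.

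The promoters of the 4 markers are shown because their transcripts define or lead the high class. They are GRCm38.p6 windows from RefSeq, from 250 to 61 bases before the RefSeq start, 5′ to 3′ on the gene's strand, and lie at chr7:46743041-46743230 (Saa1, minus strand), chr7:46751583-46751772 (Saa2, plus), chr7:46715737-46715926 (Saa3, minus) and chr2:32387800-32387989 (Lcn2, minus). The Lcn2 window also overlaps an exon that GENCODE M21 annotates for a longer Lcn2 transcript. Capitals mark matches, on either strand, to the C/EBP motif TTNNGNAA.
Saa1: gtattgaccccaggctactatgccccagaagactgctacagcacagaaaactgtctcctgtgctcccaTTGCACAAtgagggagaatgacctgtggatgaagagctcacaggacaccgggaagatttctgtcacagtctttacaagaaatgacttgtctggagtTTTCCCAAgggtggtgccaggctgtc
Saa2: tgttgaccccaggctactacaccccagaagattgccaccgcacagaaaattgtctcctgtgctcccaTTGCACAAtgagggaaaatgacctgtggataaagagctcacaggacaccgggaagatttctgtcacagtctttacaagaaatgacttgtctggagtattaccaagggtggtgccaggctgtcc
Saa3: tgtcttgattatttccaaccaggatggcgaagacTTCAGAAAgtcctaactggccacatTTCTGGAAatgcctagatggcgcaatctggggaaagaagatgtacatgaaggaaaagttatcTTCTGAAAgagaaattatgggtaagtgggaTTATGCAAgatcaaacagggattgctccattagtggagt
Lcn2: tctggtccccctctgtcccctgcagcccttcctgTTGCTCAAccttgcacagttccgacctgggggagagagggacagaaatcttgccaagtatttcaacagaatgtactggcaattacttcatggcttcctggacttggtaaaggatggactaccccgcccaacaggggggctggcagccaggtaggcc
The motif was found in 2 places in Saa1, 1 in Saa2, 4 in Saa3 and 1 in Lcn2, and 31.2% of 32544 promoter windows of that length hold it. The STAT motif TTCNNNGAA was in 0 of the 4 windows and in 5.54% of all, and the NF-kappa-B consensus was in 0 of the 4 and in 5.43% of all. The Saa1 and Saa2 windows were identical in 178 of 191 aligned positions (93.2%). The transcripts of these neighbouring genes are also close copies, so the split of UMIs between Saa1 and Saa2 is uncertain and only their sum was used.

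**Figure D1:**
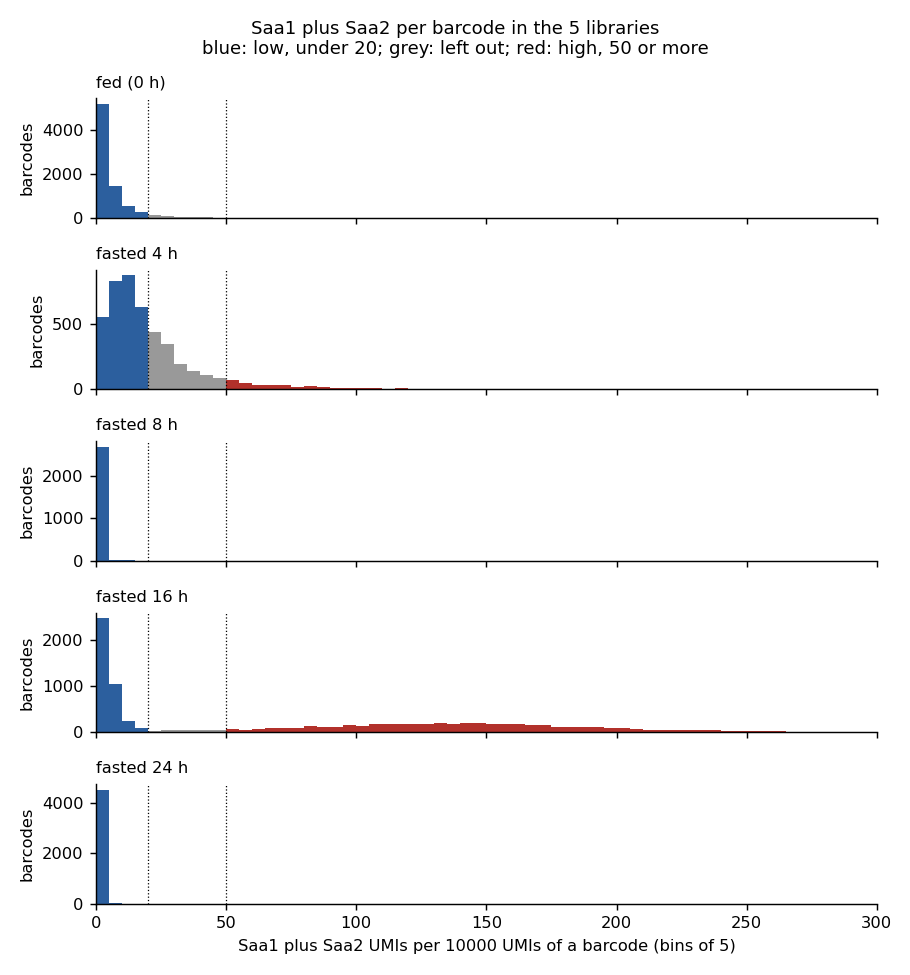
Number of barcodes past the filters (vertical axis) against Saa1 plus Saa2 UMIs per 10000 UMIs of the barcode (horizontal axis, bins of 5) in the 5 libraries, with blue for low, grey for left out and red for high. The 16 h library has a peak below 5 and a broad mound around 140, with few barcodes between; the other libraries lack the mound.

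The 16 h library held a peak of barcodes near 0 and a second broad group. Saa1 plus Saa2 had a median of 140.5 UMIs per 10000 in the high class (quartiles 106.9 and 174.7) and 3.68 in the low class (quartiles 1.54 and 6.52). No Saa1 or Saa2 UMI was found in 24.4% of low barcodes. Saa1 plus Saa2 made up 1.63% of the non-mitochondrial UMIs of the high class and 0.0513% of those of the low class. Under the same limits, 8.04% of barcodes were high at 4 h (367 of 4567). The 0 h library held 42 high barcodes (0.537%), the 8 h library 2 (0.0736%) and the 24 h library 3 (0.0656%).

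The valley between the classes was thinly filled. There were 92 barcodes at 15 to 20 Saa1 plus Saa2 UMIs per 10000, just inside the low class, and 33 at 20 to 25. At the other limit there were 50 barcodes at 45 to 50 and 68 at 50 to 55, just inside the high class. Serpina1e, an alpha-1-antitrypsin gene, stood at 1643, 2350, 4893 and 7124 CPM in those 4 ranges, where CPM is a gene's UMIs divided by all non-mitochondrial UMIs of the barcodes and scaled to a fixed total. Lcn2 stood at 28.3, 125, 295 and 305 CPM there, and Saa3 at 60.6, 49.995, 264 and 166. Saa3 was thus lower just above each limit than just below it, and the other 2 genes were higher. The ranges hold few barcodes, such as the 33 at 20 to 25 with a median of 2289 UMIs. No interval was computed for them, so these steps are a description and give no direction at a limit. The barcodes between the limits had a median of 2300 UMIs, against 4692 in the high and 4236 in the low class.

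Both classes carried hepatocyte transcripts. Alb, albumin, had a UMI in 100% and Apoa2, an apolipoprotein, in 99.9% of barcodes of either class. The median share of mitochondrial UMIs was 12.2% in the high class and 16.1% in the low class, and the median number of genes was 1662 and 1515. Summed markers of liver endothelium reached 10.9 CPM in the high and 42.3 in the low class, and those of Kupffer cells 1.48 and 10.97. Neutrophil markers summed to 0.612 and 0.454 CPM, with 6 of 9 and 8 of 9 genes at 0 UMIs. Stellate markers summed to 2.24 and 7.34 CPM, lymphocyte markers to 0.102 and 0.151, and erythroid markers to 29.4 and 17.1, nearly all from Alas2. Cholangiocyte markers summed to 71.7 and 81.0 CPM, mostly Sox9, with Krt19, Krt7, Epcam and Cldn7 at 0. Only 4 high and 31 low barcodes reached 20 UMIs per 10000 of another cell type's markers, and without them 37 genes were higher and 16 lower, the same genes as with them.

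Serum amyloid A transcripts were also found in barcodes of another cell type. The 46 endothelial-type barcodes had a median of 17.1 Saa1 plus Saa2 UMIs per 10000 at a median depth of 1232 UMIs, above the low class median of 3.68. The Saa1 and Saa2 level of the low class is therefore at or below this background and is not read as expression. Whether free RNA or mixed barcodes gave the background was not tested. Of the 10000 barcode sequences of the 16 h library, 101 also occurred in another library, among them 84 members. Without those members 38 genes were higher and 16 lower.

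UMIs were summed over each class, 19604585 in the high and 13214411 in the low class without mitochondrial transcripts, and expressed as CPM of that sum. Genes with 50 CPM or more in either class were compared, 2829 in all besides Saa1 and Saa2, and called past a 2-fold difference. In the high class 37 genes were higher (1.31% of those compared) and 16 lower (0.566%), and over all genes the median log2 ratio was -0.03, with 1233 above 0 (43.6%) and 1596 below. Of the higher genes 10 reached 50 CPM in the high class only, and of the lower genes 13 in the low class only, so that for these the minimum itself favoured the direction. These counts describe the contrast that the choice of classes set up.

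**Figure D2:**
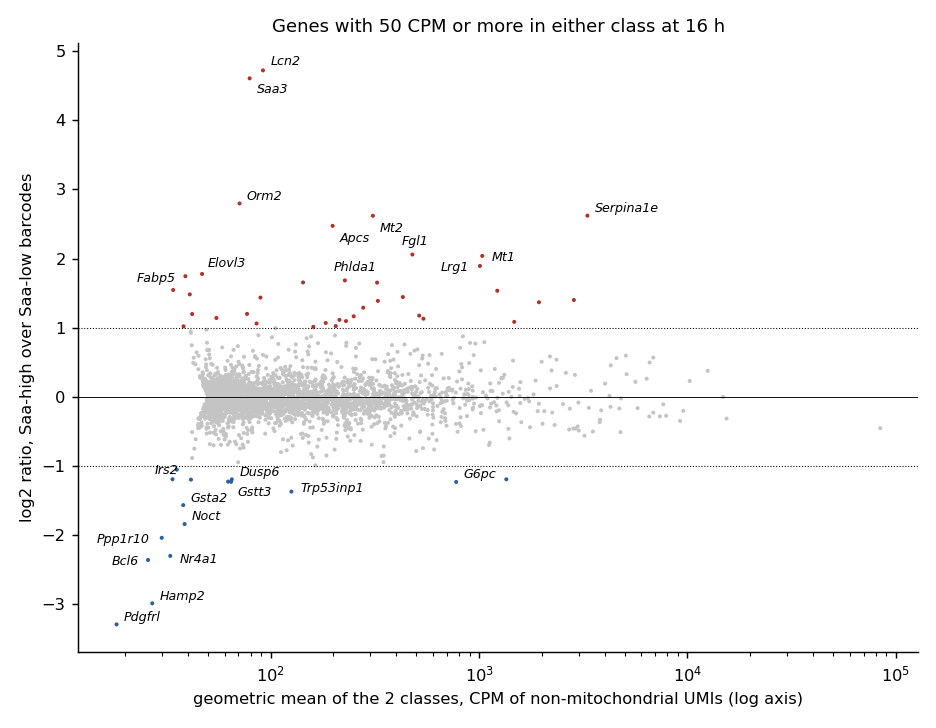
Log2 ratio of high over low barcodes (vertical axis) against the geometric mean CPM of both classes (horizontal log axis), 1 point for each of 2829 genes; red and blue points are past 2-fold (dotted lines). Lcn2 and Saa3 lie near 4.7, Serpina1e stands out at high expression with 2.62, and Pdgfrl is lowest at -3.29.

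Lcn2 and Saa3 showed the widest differences. Lcn2 encodes lipocalin 2, a secreted protein that binds bacterial siderophores, and lies at chr2:32384633-32388252. In the libraries from 0 h to 24 h it stood at 10.7, 45.9, 7.07, 287 and 16.0 CPM. Within 16 h it was 471 CPM in the high and 17.9 in the low class, a log2 ratio of 4.72 (95% interval 4.54 to 4.91). The low class was thus within the range of the other libraries, and the high class was above all of them. Saa3, a serum amyloid A gene also made outside the liver, lies at chr7:46711998-46715700. It stood at 6.54, 5.95, 4.29, 238 and 3.62 CPM from 0 h to 24 h. At 16 h it was 391 CPM in the high and 16.0 in the low class (log2 4.61, 4.41 to 4.81). For Saa3 both classes were thus above the libraries of the other times.

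The share of barcodes with a transcript gave the same order. After each barcode was thinned to 1000 non-mitochondrial UMIs (74 high, 30 low and 5 endothelial-type barcodes were too shallow), Lcn2 was found in 36.4% of high, 1.69% of low and 2.44% of endothelial-type barcodes. Without thinning the shares were 74.1%, 5.89% and 10.9%. Saa3 was found in 28.3%, 1.54% and 7.32% after thinning. The endothelial-type shares rest on few barcodes, with exact binomial 95% intervals of 0.0617% to 12.9% for Lcn2 and 1.54% to 19.9% for Saa3. The low class shares, 1.69% and 1.54%, were no higher than the endothelial-type values, at median depths of 4236 and 1232 UMIs, and are not read as expression.

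The acute-phase list held 12 of the 37 higher genes. Of its 29 genes other than Saa1 and Saa2, 26 reached 50 CPM, 12 were past 2-fold higher and 0 past 2-fold lower. Of the 12, 3 (Lcn2, Saa3 and Orm2) reached the minimum in the high class only. Of the 26, 24 lay above 0, and the list median was a log2 ratio of 0.68, beside 43.6% above 0 and a median of -0.03 over all genes. The list was drawn up with earlier results of these data known and holds the companions of Saa1, so its count is no independent evidence of a direction. Summed over the list, the high class reached 48750 CPM and the low class 28671. The sums of the whole libraries, in time order, were 27090, 27056, 22456, 40595 and 22641 CPM. The high class lay above every library in this sum, and the low class above every library but that of 16 h. The members differed in direction between the low class and the fed library, with Fga at 5625 CPM in the low class and 3857 in the fed library, and Hp at 1206 and 2175.

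Among the carriers and pentraxins of the list, Orm2, an orosomucoid that binds drugs and lipids in plasma, was 187 CPM in the high and 26.9 in the low class (log2 2.80). Orm1 was 2081 and 718 CPM (1.54), with the reservation that the orosomucoid genes are close copies. Apcs, the pentraxin known as serum amyloid P, was 467 and 84.1 CPM (2.47). Crp, the pentraxin that marks inflammation in people but responds little in mice, was 900 and 884 CPM (0.03). The 2 pentraxins therefore stood far apart in this contrast.

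Fgl1, a fibrinogen-like hepatokine, was 976 CPM in the high and 234 in the low class (log2 2.06). Lrg1, a leucine-rich glycoprotein induced by interleukin-6, was 1945 and 523 CPM (1.89). Serpina3n, a protease inhibitor, was 574 and 183 CPM (1.65). Hpx, which clears heme, was 4630 and 1753 CPM (1.40), and Hp, which clears haemoglobin, 3112 and 1206 CPM (1.37). Itih3 and Itih4, heavy chains that modify hyaluronan, had log2 ratios of 1.13 and 1.08. The low class was lower in Hp than any of the other 4 libraries, which ranged from 1553 to 2380 CPM.

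The fibrinogen chains differed by less than 2-fold. Fga was 8343 CPM in the high and 5625 in the low class (log2 0.57), Fgb had a log2 ratio of 0.50 and Fgg of 0.60. C3, the central complement protein, had 0.32, and Cp, the copper carrier ceruloplasmin, 0.51. Hamp, the iron hormone hepcidin and a known target of interleukin-6, had 381 CPM in the high and 655 in the low class (-0.78). Agt, angiotensinogen, had -0.20. These were the only 2 of the 26 genes below 0.

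Plasma proteins known to decline in the acute phase did not move as a group. None of 13 was past 2-fold in either direction. Of the 13, 6 lay above 0, and the median was -0.02, beside 43.6% and -0.03 over all genes. Alb was 71967 CPM in the high and 98456 in the low class (log2 -0.45), and Ttr, transthyretin, had -0.28. Apoa1, the main protein of high-density lipoprotein, was higher with 0.45, and Trf, transferrin, with 0.23. The sign of this list's median changed with the denominator: it was 0.04 when mitochondrial UMIs were counted and -0.07 when genes above 1% of UMIs were left out of the denominator.

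Signalling genes upstream of the response were sparse. Of 25 receptors, kinases and transcription factors of cytokine signalling, 10 reached 50 CPM and 0 were past 2-fold in either direction. Of the 10, 6 lay above 0, beside 43.6% of all genes, and the median was 0.13. Pim1, a kinase gene induced by STAT3, was 57.3 CPM in the high and 29.7 in the low class (log2 0.95). It reached the minimum in the high class only. Cebpb, a C/EBP factor, was 581 and 377 CPM (0.62), Stat3 102 and 75.1 CPM (0.45), and Il6ra, the interleukin-6 receptor, 76.2 and 58.3 CPM (0.39). Il6st, which encodes gp130, was 63.1 and 64.0 CPM (-0.02). The lowest ratio of the 10 was that of Il1rap, an interleukin-1 receptor subunit, with 160 and 205 CPM (-0.36). Of 22 NF-kappa-B genes only 2 reached the minimum: Nfkbia, the inhibitor, with -0.61 and Sod2, a mitochondrial antioxidant enzyme, with 0.06. Cxcl9, a chemokine gene induced by interferon gamma, was under the minimum with 47.8 and 4.54 CPM and was singled out after its values were seen. It had a UMI in 3.70% of high and 0.364% of low barcodes after thinning, and in 4.88% of the few endothelial-type barcodes (interval 0.596% to 16.5%).

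Of the coagulation and complement genes outside the acute-phase list, 33 of 34 reached the minimum. None was past 2-fold, and 9 were past 1.5-fold higher and 0 lower, beside 3.22% and 2.37% of all genes compared. Their median was 0.05, or -0.0022 when genes above 1% of UMIs were left out of the denominator. The lowest was Serpind1, heparin cofactor II (-0.32). C8a, C4b and C9, proteins of the complement cascade, had 0.76, 0.67 and 0.62. Of 27 genes of protein folding and secretion in the endoplasmic reticulum, 22 reached the minimum, 0 were past 2-fold, and the median was -0.07. Hspa5, the main chaperone there, was 677 and 887 CPM (-0.39), and Xbp1, a factor of the unfolded protein response, 338 and 279 CPM (0.28).

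**Figure D3:**
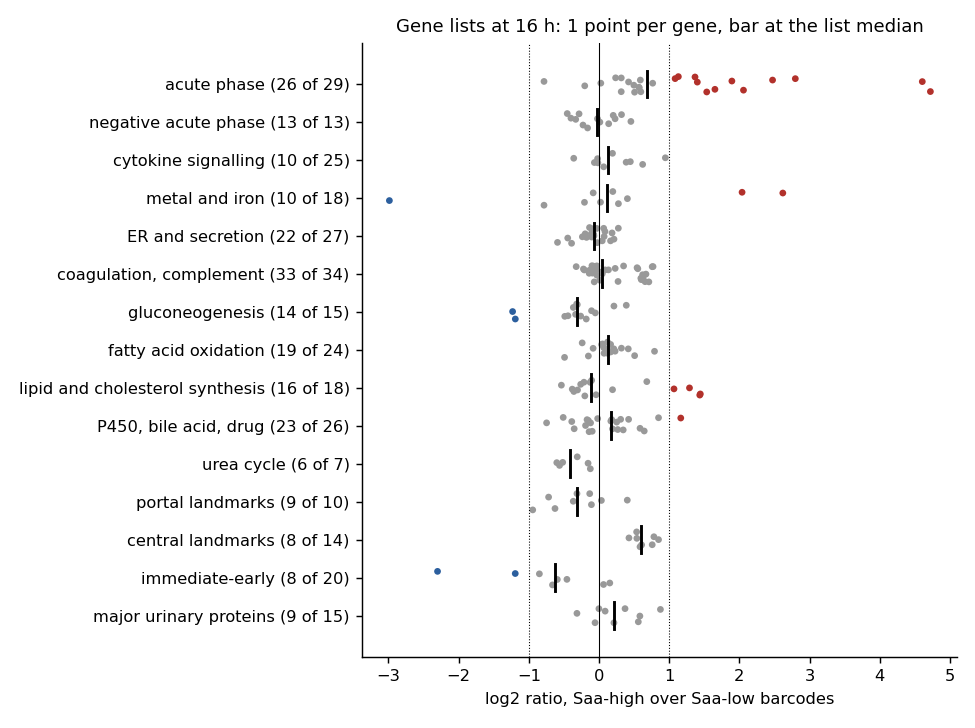
Log2 ratios of high over low barcodes (horizontal axis) of the genes of 15 lists that reached 50 CPM, 1 point per gene, with the number of genes shown of the number listed; black bars are list medians and dotted lines mark 2-fold. Red and blue points are past 2-fold; 12 acute-phase genes lie to the right of the upper line, and the urea cycle genes all lie below 0.

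Of the 37 higher genes, 25 were outside the acute-phase list, and Serpina1e, Mt2 and Mt1 had the widest ratios among them. Serpina1e is 1 of a cluster of alpha-1-antitrypsin genes and lies at chr12:103946931-103958975. The libraries held 4107, 4644, 10519, 5414 and 1078 CPM of it in time order. Within 16 h it was 8207 CPM in the high and 1334 in the low class (log2 2.62, 2.60 to 2.64). The low class was thus close to the 24 h library, and the high class was between the 4 h and the 8 h library. Per barcode, the median was 68.7 UMIs per 10000 in the high class (quartiles 38.5 and 96.9) and 7.07 in the low class (2.80 and 15.03). Only 0.801% of low barcodes lay above the high median, and 3.54% of high barcodes lay below the low median. After thinning, a Serpina1e UMI was found in 96.2% of high, 59.1% of low and 68.3% of endothelial-type barcodes (interval of the last 51.9% to 81.9%). By this measure the low class did not exceed that background. Without thinning the shares were 99.1%, 85.1% and 67.4%, at unlike depths. The order of low and endothelial-type barcodes thus depended on the thinning.

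The other alpha-1-antitrypsin genes, looked at after the values of Serpina1e were seen, did not share this difference. Serpina1a was 4300 CPM in the high and 3765 in the low class (log2 0.19) and Serpina1b 4439 and 4990 (-0.17). Serpina1c was 7375 and 7946 CPM (-0.11) and Serpina1d 2420 and 3325 (-0.46). The 5 genes are close copies, and the labels do not say how reads shared between them were counted.

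The metallothionein genes Mt1 and Mt2 bind zinc and copper and are known targets of glucocorticoids, metals and interleukin-6. Mt2 was 766 CPM in the high and 125 in the low class (log2 2.62, 2.55 to 2.69), and Mt1 2098 and 511 CPM (2.04). Across the libraries Mt2 stood at 27.1, 1839, 1716, 505 and 404.7 CPM from 0 h to 24 h. Both classes were therefore above the fed and below the 4 h library. Mt1 had a UMI in 78.1% of high, 36.0% of low and 82.9% of endothelial-type barcodes after thinning. For Mt2 the shares were 49.1%, 11.2% and 26.8%. Of the 18 genes of metal and iron handling, 10 reached the minimum. Of these, 2 were past 2-fold higher and 1 lower, beside 1.31% and 0.566% of all genes. The median was 0.11, or -0.08 when genes above 1% of UMIs were left out of the denominator. Fth1, ferritin heavy chain, had -0.08, and Slc40a1, the iron exporter ferroportin, 0.28.

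Several enzymes of cholesterol synthesis were past 2-fold higher, while the enzymes of fatty acid synthesis in the same list were not. Hmgcs1, which makes the precursor HMG-CoA, was 710 CPM in the high and 261 in the low class (log2 1.44). Sqle, squalene epoxidase, was 147 and 54.3 CPM (1.44), and Idi1, an isoprenoid isomerase, 434 and 178 CPM (1.29). Cyp51, lanosterol demethylase, was 266 and 127 CPM (1.07). These were the 4 genes past 2-fold in a list of 18 for lipid and cholesterol synthesis. Of that list 16 reached the minimum and 0 were past 2-fold lower. Over all genes 1.31% were past 2-fold higher. Msmo1, Nsdhl and Fdps, further enzymes of the sterol pathway, were outside the list and had 1.39, 1.20 and 1.06. Fasn, fatty acid synthase, was 122 and 133 CPM (-0.13), Acaca, which makes its substrate malonyl-CoA, had -0.38, and Scd1, a desaturase, -0.20. The list's median (-0.12) and mean (0.22) accordingly differ in sign.

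Further higher genes had varied roles. Elovl3, a fatty acid elongase, was 86.7 CPM in the high and 25.3 in the low class (log2 1.78). Fabp5, a fatty acid carrier, was 71.3 and 21.3 CPM (1.74), and Phlda1 407 and 127 CPM (1.68). Cyp4a12a, a fatty acid hydroxylase, Hsd3b5, a steroid dehydrogenase, and Slco1a1, an organic anion transporter, had 1.65, 1.48 and 1.17. All are known for higher expression in male than female mouse liver. They were grouped after their values were seen and not from a list, so the grouping is no evidence on such genes at large. At 24 h these 3 genes stood at 27.5, 0.213 and 31.2 CPM, against 183, 50.6 and 290 at 16 h. Among 26 genes of P450, bile acid and drug handling, 23 reached the minimum and Slco1a1 was the 1 of these past 2-fold, with a list median of 0.17 that became -0.22 when ratios were averaged within zones. Paqr9, Prg4, Ang, Osgin1, Tmem176a, Rdh9, Foxq1, Cldn2 and Gm2788 made up the rest, with log2 ratios from 1.01 to 1.55. Foxq1 and Rdh9, near the 2-fold limit, stayed past it under 9 and 11 of 17 other settings.

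Of the 16 lower genes, G6pc, Tat and Trp53inp1 reached the minimum in both classes, and the other 13 in the low class only. The lowest ratio was that of Pdgfrl, a gene related to the platelet-derived growth factor receptor. In time order the libraries held 1.43, 3.71, 2.45, 26.3 and 2.16 CPM of it. Within 16 h it was 5.81 CPM in the high and 56.9 in the low class (log2 -3.29, -3.588 to -3.005). The low class was thus above all other libraries for this gene. Hamp2, a copy of the hepcidin gene, was 9.59 and 76.0 CPM (-2.99), with the reservation that Hamp and Hamp2 are alike in sequence. In time order the libraries held 73.2, 42.7, 19.2, 36.6 and 93.5 CPM of Hamp2, so the low class was within their range and the high class below it.

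The lower genes included several that encode regulators. Bcl6, a transcriptional repressor of lipid genes in liver, was 11.4 CPM in the high and 58.3 in the low class (log2 -2.36). Nr4a1, an orphan nuclear receptor of the immediate-early kind, was 14.8 and 73.1 CPM (-2.30). Ppp1r10, a phosphatase regulator, Noct, the circadian enzyme nocturnin, and Trp53inp1, a p53 target, had -2.04, -1.84 and -1.37. Dusp6, a MAP kinase phosphatase, Irs2, the insulin receptor substrate, Sik1, a salt-inducible kinase, Jun, a subunit of AP-1, and Arl4d had log2 ratios between -1.23 and -1.05. Gsta2 and Gstt3, glutathione transferases, had -1.57 and -1.23. Immediate-early and dissociation stress genes had a median of -0.63 over the 8 of 20 that reached the minimum. Of these, 2 were past 2-fold lower (Nr4a1 and Jun), beside 0.566% of all genes. Egr1, a further early-response factor, was 121 and 191 CPM (-0.66), and Junb 111 and 99.9 CPM (0.15).

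Of the gluconeogenic genes G6pc and Tat were past 2-fold lower in the high class. Of 15 genes on the list, 14 reached the minimum, 2 were past 2-fold lower and 0 higher. Of the 14, 12 lay below 0, and the median was -0.31. Over all genes 0.566% were past 2-fold lower, and 1596 of 2829 lay below 0. G6pc, glucose-6-phosphatase, which releases glucose from the cell, was 507 CPM in the high and 1189 in the low class (log2 -1.23, -1.27 to -1.19). Tat, which degrades tyrosine, was 894 and 2042 CPM (-1.19). Pck1, phosphoenolpyruvate carboxykinase, differed less, with 3340 and 4303 CPM (-0.37), and Pcx, pyruvate carboxylase, was 251 and 217 CPM (0.21). Per barcode, the median of G6pc was 3.68 UMIs per 10000 in the high class (quartiles 1.46 and 6.69) and 9.07 in the low class (5.28 and 13.5), and the ranges overlapped. The 6 urea cycle genes that reached the minimum, of 7, all lay below 0 with a median of -0.41. Cps1, which fixes ammonia, was 2634 and 3888 CPM (-0.56), and Ass1, argininosuccinate synthase, 1135 and 1721 CPM (-0.60).

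Of 24 genes of fatty acid oxidation, another fasting pathway, 19 reached the minimum and 0 were past 2-fold. Of the 19, 15 lay above 0, with a median of 0.12, beside 43.6% and -0.03 over all genes. Cpt1a, which admits fatty acids to mitochondria, was 326 and 299 CPM (0.12), and Cyp4a14, a target of PPARalpha, 1394 and 805 CPM (0.79). Of 15 major urinary protein genes, near-identical copies whose counts are uncertain, 9 reached the minimum, 0 were past 2-fold, and the median was 0.21.

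The classes were spread unevenly along the lobule axis. Barcodes were ranked by a score of portal minus central landmark genes and split into 3 parts of equal size. High barcodes made up 66.5% of the central, 51.7% of the middle and 45.2% of the portal part. Over all barcodes, the 8 central landmarks at the minimum all lay above 0, with a median of 0.60, and 7 of 9 portal ones lay below 0, with a median of -0.31. Within the 3 parts the central differences were smaller or reversed, as follows in part from the split, which ranked barcodes on these same landmarks. Cyp2e1, a central P450, was 2678 and 1786 CPM over all barcodes (0.58), but had log2 ratios of -0.11, -0.08 and -0.23 in the central, middle and portal part. The median of the central list averaged over the 3 parts was -0.02. Glul, glutamine synthetase of the innermost layer, went from 0.61 to 0.07, -0.02 and -0.20.

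The leading genes differed within each zone part as well. Lcn2 had log2 ratios of 4.29, 4.84 and 4.97 in the central, middle and portal part, Serpina1e 2.51, 2.79 and 2.72, and Pdgfrl -3.53, -2.94 and -3.28. G6pc had -1.18, -1.21 and -1.14. Of the 37 higher genes, 27, 33 and 34 were past 2-fold in the central, middle and portal part, and of the 16 lower genes 14, 15 and 14, whatever their level there. With the minimum of 50 CPM asked again within each part, the counts were 27, 30 and 31 higher and 9, 15 and 14 lower, since some genes fell under it. Rdh9, a retinol dehydrogenase, had 130 CPM in the high and 100.1 in the low class in the central part (log2 0.38). In the middle part it was at 10.7 and 6.22 CPM (0.79). In the portal part, with 33 and 38 UMIs, it had -0.25 with a 95% counting interval from -0.97 to 0.46, which gives no direction. Cldn2, a claudin of central hepatocytes, had 0.57 in the central part, and 0.44 and 1.16 at under 20 CPM in the other parts. Its 95% counting interval in the middle part ran from -0.01 to 0.91, which gives no direction.

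**Figure D4:**
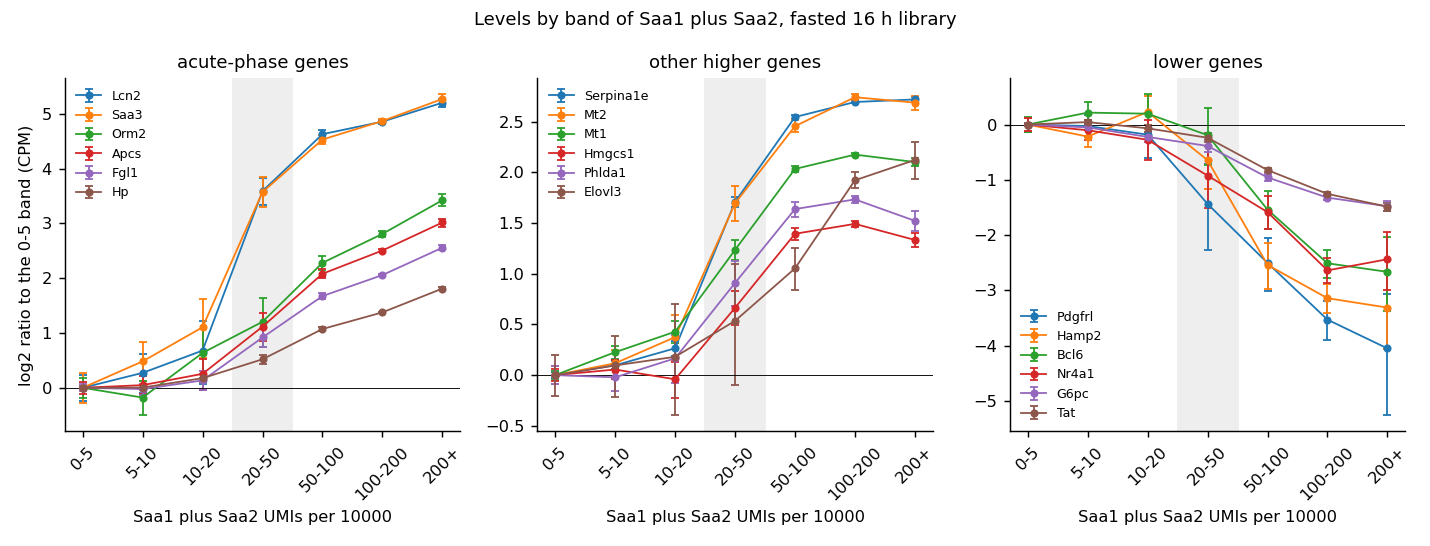
Log2 ratio of summed CPM to the lowest band (vertical axis) over 7 bands of Saa1 plus Saa2 UMIs per 10000 (horizontal axis) for 6 acute-phase, 6 other higher and 6 lower genes of the 16 h library; bars are exact Poisson 95% intervals of each band and grey marks the barcodes left out. The 6 acute-phase genes are higher in each successive band from 20 up to the last, whereas Serpina1e, Mt1, Mt2 and Hmgcs1 differ little between the last 2 bands.

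Bands of Saa1 plus Saa2 showed levels within and between the classes. Lcn2 stood at 16.2, 19.5 and 25.9 CPM in the bands 0 to 5, 5 to 10 and 10 to 20, at 195 between the limits, and at 401, 470 and 597 in the bands 50 to 100, 100 to 200 and above 200. Hp stood at 1193, 1196, 1347, 1711, 2509, 3097 and 4184 CPM in the same order. Serpina1e stood at 1290, 1379, 1549, 4214, 7529, 8345 and 8493 CPM. Lcn2 and Hp were thus higher in each successive high band, and Serpina1e differed little between the upper ones. G6pc stood at 1214, 1171, 1040, 928, 626, 486 and 436 CPM, lower in each successive band.

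The high class was itself split into 3 parts of equal size by Saa1 plus Saa2, the counts that chose the classes, so the values are a description only and no count over the genes is given. From the lowest to the highest part, the acute-phase genes Orm2, Hp, Lcn2 and Serpina3n had log2 ratios of 0.80, 0.48, 0.31 and 0.17. Among higher genes outside that list the values were 1.17 for Cldn2, 0.99 for Rdh9 and 0.87 for Elovl3, and 0.10 for Serpina1e, 0.02 for Mt1 and 0.03 for Hmgcs1. Hamp, lower in the high than in the low class, had 304, 369 and 473 CPM in the 3 parts, a log2 ratio of 0.64 from the lowest to the highest. The portal share of barcodes moved with these parts, from 38.0% to 26.9% and 18.1%, and its part in the differences was not tested.

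The 4 h library was the only other one with 50 or more barcodes in both classes, 367 high and 2883 low. Its high barcodes were far shallower, with a median of 2480 UMIs against 14031 in its low ones, and the median log2 ratio over its 2738 genes was -0.39, with 22.2% above 0. In that library 54 genes were past 2-fold higher (1.97%) and 79 lower (2.89%). Of the 12 acute-phase genes higher at 16 h, 11 reached 50 CPM at 4 h. All 11 lay above 0, with a median of 1.29, and 6 were past 2-fold. Of the 11, Lcn2, Orm2 and Apcs reached the minimum in the high class only, so for these the minimum itself favoured the direction. Lcn2 and Orm2 were among the 6. Lcn2 was 151 CPM in the high and 30.6 in the low class (log2 2.30), Hpx 7038 and 2549 CPM (1.47), Hp 4888 and 1996 CPM (1.29), and Orm1 2873 and 1137 CPM (1.34). Saa3 was under the minimum with 41.6 and 2.93 CPM. When low barcodes were weighted to the depth of the high ones, 1.6% of genes were past 2-fold higher and 2.24% lower, and the median of the 11 genes was 1.20.

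**Figure D5:**
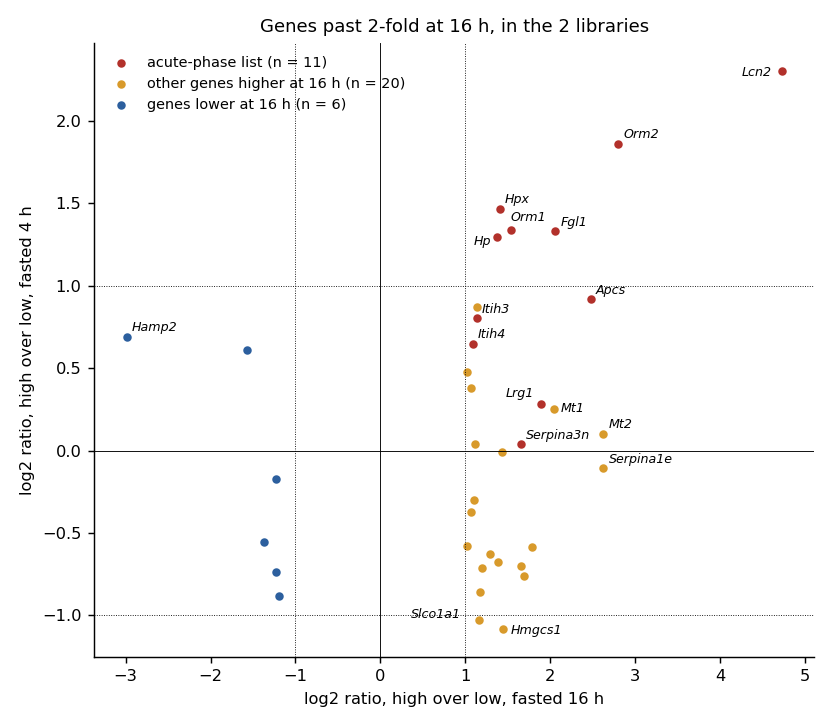
Log2 ratios of high over low barcodes at 4 h (vertical axis) against those at 16 h (horizontal axis) for genes past 2-fold at 16 h that reached 50 CPM at 4 h, with dotted lines at 2-fold. The 11 acute-phase genes lie above 0 on both axes, and the 20 other higher genes have a median of -0.48 at 4 h.

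The other higher genes did not follow at 4 h. Of the 20 that reached the minimum, 0 were past 2-fold higher, 2 past 2-fold lower and 6 above 0, and their median was -0.48, close to the -0.39 of all genes. Serpina1e was 4308 CPM in the high and 4637 in the low class (log2 -0.11), and Mt2 1900 and 1771 CPM (0.10). Under the minimum at 4 h, Fabp5 had 0.11, and Gm2788, Hsd3b5, Cldn2 and Rdh9 had -1.74, -1.18, -2.76 and -4.13. Cldn2 was 3.60 CPM in the high and 24.3 in the low class there, and Rdh9 1.54 and 27.0 CPM. Whether the 4 h classes differed in zone was not tested. Of the lower genes 6 reached the minimum, 0 were past 2-fold, and their median was -0.37. G6pc had -0.17 there, and Tat -0.89. In all, 6 genes were past 2-fold higher in both libraries, 16.2% of the 16 h list and 11.1% of the 4 h list, all of them from the acute-phase list. The libraries differ in fasting time, clock hour and depth at once, and these cannot be told apart.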

How the data were processed

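Single hepatocytes of 5 libraries were profiled, and the fasted 16 h library was analysed in depth. The deposited values were raw UMI counts per gene and barcode, which per the file headers come from Cell Ranger 6.0.1. Alignment was to mm10 per the submitters' processing notes, with no annotation version named there. Other deposited tables named genes and the library of each barcode, with 0 columns of per-sample values left unused. Total UMI counts ranged from 40002260 to 68330252 per library. At 16 h, 502 of 10000 barcodes failed the UMI limit, 309 the gene limit, 484 the lower and 7 the upper mitochondrial limit.

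Counts were summed per class and divided by non-mitochondrial UMIs. Intervals for ratios are exact conditional binomial, at 95%, and their coverage was tested on simulated data. The genes named are the 12 highest and 12 lowest ratios, and list members past 2-fold or, failing that, of high level. The other genes named, among them the remaining genes past 2-fold, were chosen after their values were seen. Members, markers and lists were chosen with earlier results of these data known. A second set of limits, denominators, scalings, weights, filters, minimums and folds was tried. No doublet caller was run, and the 2% deepest barcodes were left out in 1 alternative. No p-value is given. Gene positions are from GENCODE M21 (GRCm38), which held 32158 of the 32285 gene IDs. The tools were pandas 2.3.3, scipy 1.17.1, numpy 2.4.6 and matplotlib 3.10.9 under Python 3.11.15, with edgeR 4.0.16 in R 4.3.3 for TMM factors only. Lists are given by counts with some members named, and some items are not reported here.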

Additional observations from a re-analysis of the deposited data

Results flagged for a closer look

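Hmgcs1, an enzyme of cholesterol synthesis, was past 2-fold in opposite directions in the 2 libraries that held both classes. Its log2 ratio of high over low barcodes was 1.44 at 16 h and -1.08 at 4 h, and -1.01 at 4 h after low barcodes were weighted to the depth of the high ones. The difference between the libraries was not tested, since each is 1 library.

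Slco1a1, an organic anion transporter, did the same, with 1.17 at 16 h, -1.03 at 4 h and -1.003 after weighting, and this difference was not tested either. The median over all genes compared at 4 h was -0.39, so both genes lay less than 1 log2 unit below it.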

How the results depend on the processing

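With a minimum of 10 CPM in place of 50, 63 genes were higher and 34 lower in the high class. With no CPM minimum the counts were 363 and 444, among 12069 genes, and 44.98% of calls were higher beside 69.8%. At 1.5-fold the counts were 91 and 67, with 57.6% higher. These settings admit more genes by construction. Under the other 17 settings 33 to 41 genes were higher and 12 to 19 lower. All 53 genes kept their direction under these 17 settings, where the zone setting is the mean over the 3 parts. Foxq1 stayed past 2-fold in 9 of these, Rdh9 in 11, Tmem176a in 13, Osgin1, Fdps and Arl4d in 15, and Cldn2 and Ang in 16. Weighting low barcodes to the mitochondrial share of the high ones, chosen after seeing the data, gave 37 and 19 genes, with Lcn2 at 4.31, Serpina1e at 2.43 and G6pc at -1.10. Averaging within zones turned the medians of the central list to -0.02 and of the P450, bile acid and drug list to -0.22. A denominator without abundant genes turned the medians of metal and iron genes to -0.08 and of coagulation and complement genes to -0.0022. The NF-kappa-B median turned to 0.01 there, and to 0.18 at a minimum of 10 CPM. No paired analysis was possible because each time point is 1 library. At 50 CPM a class sum held 980 UMIs in the high and 661 in the low class.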

Other observations

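Alas2, the erythroid form of the first enzyme of heme synthesis, had 576 UMIs in the high and 226 in the low class while the 4 globin genes of the same list had 1 UMI in all. Spp1, a secreted phosphoprotein, had 138 and 44 UMIs while the keratin genes Krt19 and Krt7 had 0. The class sums were 19604585 and 13214411 non-mitochondrial UMIs, so these UMIs do not compare directly between the classes. As CPM, the erythroid list with Alas2 summed to 29.4 and 17.1. Cyp7a1, the rate-limiting enzyme of bile acid synthesis, was below the minimum with 39.3 CPM in the high and 9.46 in the low class. These genes were chosen after their values were seen.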
